A study of Mus musculus with 2 samples.

Results

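Glycolysis and hypoxia-induced genes were read in bone marrow cells with silencing of a long non-coding RNA. The set held 42 mouse genes, out of 18193 genes that the array read by a probe set with 1 gene symbol. It covered 23 genes of glucose uptake, the glycolytic enzymes and the fate of pyruvate, 7 genes of the pathway of hypoxia-inducible factor (HIF), and 12 genes known to be induced by HIF. In all, 40 of the 42 had a probe set of their own, 38 of these were above the floor defined below, Eno2 and P4ha2 were under it, and for Gpi1 and Eno1 no probe set is named here. Ero1l was read under its current symbol Ero1a. The members were chosen by function but with earlier results of these 2 arrays known, and the probe set of a gene was selected on its mean intensity over both arrays, so the direction and size of the members' differences are given as a description, with no test.

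There were 2 groups with 1 array each. In the silncMDSC group, marrow was taken from C57BL/6 mice and its cells, while fresh, received an siRNA against lncMDSC, the long non-coding RNA that the study calls lnc-C/EBPβ. In the control siRNA group, cells of the same strain received a control siRNA. GM-CSF and IL-6 were present in both cultures over the following 4 days. These cytokines drive marrow precursors toward myeloid-derived suppressor cells (MDSCs), a mixed population of immature myeloid cells that dampens T cell responses. Neither the age, sex and number of the mice nor a sort of the cells is given in the labels, so each array describes a whole mixed culture. The question behind the comparison was which genes depend on lnc-C/EBPβ while MDSCs form. The targeted RNA has no named probe set here, and its knockdown was not analyzed.

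Glycolysis splits glucose into pyruvate and gives ATP without oxygen, and activated or immature myeloid cells rely on it heavily. HIF is made of an oxygen-sensitive alpha subunit (Hif1a) and a constant partner (Arnt). When oxygen is ample, prolyl hydroxylases (Egln1, Egln2 and Egln3) mark the alpha subunit, the ubiquitin ligase subunit Vhl binds the mark, and the protein is destroyed. When oxygen is short, or when signals raise the alpha subunit, HIF binds short DNA elements with the core ACGTG or GCGTG and raises glucose transporters, glycolytic enzymes, regulators of mitochondria and its own hydroxylases.

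The core letters were looked for in the promoters of the members, because HIF acts through them. RefSeq promoter windows (GRCm38.p6, 250 bases before to 50 after each annotated start) were matched for 39 of the 42 genes, as 58 windows, some of which overlap within a gene. ACGTG on either strand was held by 30 of these 58 windows, or 51.7%, against 25.1% of 12307 windows of genes above the floor and 19.6% of all 32851 windows. The members' windows had a median GC content of 62.2%, against 60.3% for genes above the floor and 52.7% for all windows. With GCGTG counted too, 75.9% of the members' windows had a match, against 60.1% and 43.8% of the other windows in the same order. The HIF targets were listed because they are known targets, so their share of 10 in 15 windows is not independent of the list. Members of the other 2 groups, such as Hk2, Pdk1, Egln1 and Egln3, are HIF-induced too. The share over all members is therefore not independent of the list either. The windows below are shown for the 5 members at least 1.5-fold higher in silncMDSC that had one, and for Ldha, which has 5 matches but was nearly level between the arrays. Aldoc and Ldha each have a second window without ACGTG, and the one that holds it was picked for printing. Capitals mark ACGTG or its reverse complement CACGT, and the palindrome CACGTG counts once on each strand.

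Aldoc, chr11:78322823-78323122, plus strand: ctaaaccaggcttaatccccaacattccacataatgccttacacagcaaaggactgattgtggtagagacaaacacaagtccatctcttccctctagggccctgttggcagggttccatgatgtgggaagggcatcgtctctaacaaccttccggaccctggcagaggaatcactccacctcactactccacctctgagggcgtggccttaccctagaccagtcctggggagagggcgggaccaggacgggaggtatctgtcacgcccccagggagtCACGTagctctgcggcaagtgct
Ankrd37, chr8:45999801-46000100, minus strand: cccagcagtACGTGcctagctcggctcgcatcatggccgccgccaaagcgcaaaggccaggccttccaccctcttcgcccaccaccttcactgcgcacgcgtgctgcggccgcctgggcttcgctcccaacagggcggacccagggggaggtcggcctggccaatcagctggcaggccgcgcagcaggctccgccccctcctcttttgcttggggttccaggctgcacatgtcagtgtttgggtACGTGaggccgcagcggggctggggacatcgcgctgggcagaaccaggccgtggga
Bnip3, chr7:138909457-138909756, minus strand: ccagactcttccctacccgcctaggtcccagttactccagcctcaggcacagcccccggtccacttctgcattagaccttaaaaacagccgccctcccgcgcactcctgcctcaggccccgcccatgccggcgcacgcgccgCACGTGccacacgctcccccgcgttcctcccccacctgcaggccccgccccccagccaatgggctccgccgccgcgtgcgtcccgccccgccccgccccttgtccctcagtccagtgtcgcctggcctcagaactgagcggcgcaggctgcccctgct
Egln3, chr12:54203825-54204124, minus strand: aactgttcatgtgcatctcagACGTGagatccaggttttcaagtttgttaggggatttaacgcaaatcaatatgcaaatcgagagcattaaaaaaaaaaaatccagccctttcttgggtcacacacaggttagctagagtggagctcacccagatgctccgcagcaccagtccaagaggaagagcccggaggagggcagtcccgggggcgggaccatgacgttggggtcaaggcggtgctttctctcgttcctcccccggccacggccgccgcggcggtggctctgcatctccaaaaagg
Mgarp, chr3:51396498-51396797, minus strand: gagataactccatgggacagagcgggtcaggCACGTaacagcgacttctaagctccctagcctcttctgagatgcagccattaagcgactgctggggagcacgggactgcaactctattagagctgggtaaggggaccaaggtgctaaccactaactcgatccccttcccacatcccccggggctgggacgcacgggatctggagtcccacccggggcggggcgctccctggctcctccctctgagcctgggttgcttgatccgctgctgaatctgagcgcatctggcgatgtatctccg
Ldha, chr7:46845554-46845853, plus strand: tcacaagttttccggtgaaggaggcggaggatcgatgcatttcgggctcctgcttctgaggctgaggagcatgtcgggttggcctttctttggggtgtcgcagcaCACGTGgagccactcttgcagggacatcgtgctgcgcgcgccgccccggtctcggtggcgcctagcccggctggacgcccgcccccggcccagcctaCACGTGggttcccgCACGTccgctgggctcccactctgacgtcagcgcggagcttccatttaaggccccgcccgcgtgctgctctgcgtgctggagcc

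All 5 of the higher members with a window held the core, as did 21 of the 34 other members with one. The higher members Slc2a3 and Ndrg1 had no window. Ankrd37, Bnip3 and Mgarp were listed as HIF targets, and 9 of the 10 HIF targets with a window held the core. These counts therefore do not show that the core goes with a larger difference. Counted per gene, with a match in any of its windows, 29.2% of genes above the floor and 21.8% of all genes held it, and a gene with several windows has more chances to match. In Aldoc the match lay after the annotated start, and in Bnip3 it was a single palindrome. Ldha and Hif1a, whose differences were 0.07 and -0.12, held it as well. A match is a string of letters in this window and does not show that the site is bound.

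Values are probe set intensities as deposited. A difference is log2(intensity + 1) in silncMDSC minus the same quantity in control, and a fold is taken on that scale, which slightly understates dim probe sets. The floor was the median of all probe set values of both arrays, 78.4, and a gene was above it when the higher of its 2 values reached it, which left 11920 genes. Array medians were 79.0 in silncMDSC and 78.0 in control, and the median difference of all genes above the floor was -0.002. With 1 array per group, no difference has a replicate check. The only spread that can be measured is that between probe sets of one gene. In 4841 genes with more than 1 probe set above the floor, the brightest and the next differed by a median of 0.09 on the log2 scale, with a 95th percentile of 0.38. This gap measures probe error and not the spread between cultures.

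Most members were higher in the silncMDSC culture. Of the 38 above the floor, 36 were higher by any size, where 49.3% of all genes above the floor were, and Hk3 and Hif1a were lower. Of the 38, 17 were at least 1.2-fold higher (6.96% of all genes), 7 at least 1.5-fold higher (0.948% of all genes) and 2 at least 2-fold higher (0.168% of all genes), while 0 were at least 1.5-fold lower (1.42% of all genes). Mgarp, 1 of the 7 and of the 2, passed the floor only through the silncMDSC array, as did Slc16a3, 1 of the 36. Because the list was proposed with these differences known, nothing is read from these shares. The median difference was 0.24 over all 38 members, 0.21 over the 20 genes of glucose uptake, glycolysis and pyruvate fate, 0.22 over the 7 HIF pathway genes and 0.34 over the 11 HIF targets. The groups overlapped widely, with HIF targets between 0.23 and 1.26 and glycolytic genes between -0.02 and 1.58. By rank from the top among the 11920 genes, 13 members lay in the first 596 and 6 in the first 100. These ranks restate the same differences, so nothing is read from them either. In these bulk cultures, more cells of a type and more message per cell cannot be told apart.

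**Figure D1:**
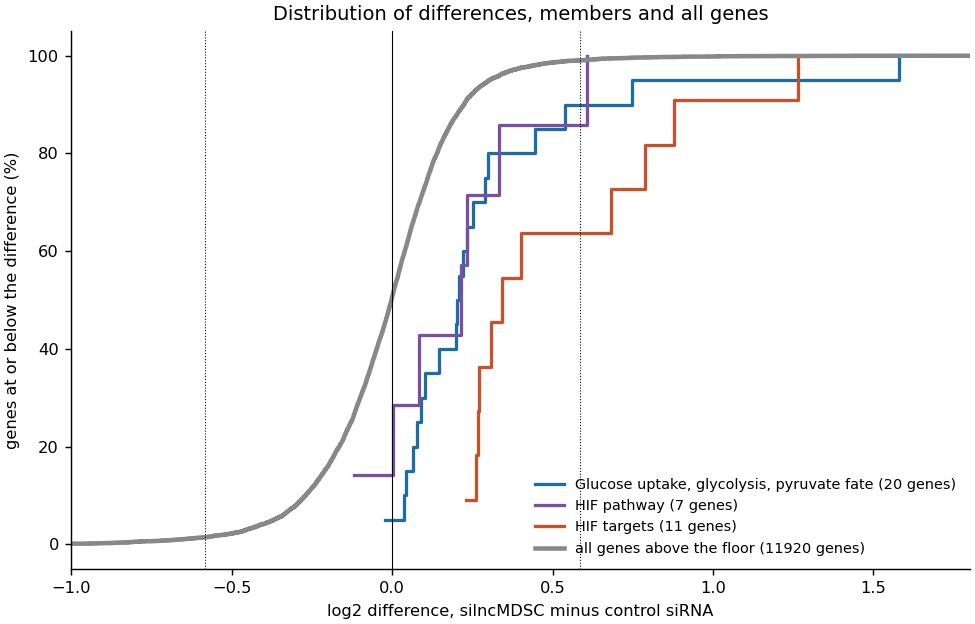
Cumulative share of genes (y axis, percent) at or below each log2 difference between silncMDSC and control (x axis, 1 array each) for the 3 member groups and for all 11920 genes above the floor, with dotted lines at 1.5-fold. The curves of the members lie to the right of the grey curve, whose median is -0.002, and the curve of the HIF targets starts at 0.23.

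The 2 glucose transporters differed from each other. Slc2a3, the high-affinity transporter GLUT3, had an intensity of 2781 in silncMDSC and 1657 in control, 1.68-fold higher (0.75). Its second probe set above the floor gave 0.77. Both can cross-hybridise (identifiers ending in _s_at and _x_at), and the remaining 2 probe sets of Slc2a3 were below the floor, at 0.41 and 0.06. Slc2a1, the basal transporter GLUT1, had 1479 in silncMDSC and 1400 in control (0.08), and its other 2 probe sets gave 0.06 and 0.07. The difference of Slc2a3 exceeded that of Slc2a1 by 0.67, and the probe sets above the floor of the 2 genes did not overlap. For Slc2a3 this rests on the cross-hybridising kind only, and its dim value of 0.06 was as small as those of Slc2a1.

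Hexokinases, which trap glucose in the cell as glucose 6-phosphate, differed by less than 1.2-fold. Hk1 had 1541 in silncMDSC and 1341 in control, 1.15-fold higher (0.20), with -0.03 on a probe set below the floor. Hk2, an isozyme that HIF induces, had 1453 in silncMDSC and 1418 in control (0.04). Hk3, the isozyme of blood cells, had 1542 in silncMDSC and 1566 in control (-0.02), with -0.08 on its other probe set. The sign for Hk3 turned to 0.01 when a loess trend on level was removed.

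Phosphofructokinase, the committing step, was higher in all 3 of its isozymes, each by less than 1.5-fold. Pfkp, the platelet isozyme, had 1183 in silncMDSC and 869 in control, 1.36-fold higher (0.44), with 0.36 and 0.37 on its other probe sets. Pfkl, the liver isozyme, had 452 in silncMDSC and 368 in control (0.30), but 0.08 on each of its other 2 probe sets. Pfkm, the muscle isozyme, had 139 in silncMDSC and 119 in control (0.23). The probe sets of Pfkp lay above those of Pfkl and Pfkm without overlap, but the gaps of 0.15 and 0.21 were within the 95th percentile of the gap between probe sets of a gene. The bifunctional enzymes that set the level of the phosphofructokinase activator fructose 2,6-bisphosphate were Pfkfb4, with 677 in silncMDSC and 554 in control (0.29), and Pfkfb3, with 284 in silncMDSC and 264 in control (0.10).

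Aldolase C held the largest difference of the set. Aldolases cut fructose 1,6-bisphosphate into 2 triose phosphates, Aldoa being the ubiquitous form and Aldoc the form best known from brain. Aldoc had 1793 in silncMDSC and 599 in control, 2.99-fold higher (1.58). Only 2 of the 11920 genes had a larger positive difference. Its other probe set had 292 in silncMDSC and 95.2 in control (1.61). Aldoa had 7313 in silncMDSC and 6275 in control (0.22), with 0.22 to 0.48 on its other 4 probe sets, all of them of the cross-hybridising _x_at kind. The difference of Aldoc exceeded that of Aldoa by 1.36, more than 3 times the 95th percentile of the gap between probe sets of a gene.

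The later enzymes of glycolysis were higher by small amounts. Tpi1, which interconverts the triose phosphates, had 4622 in silncMDSC and 4025 in control (0.20), with 0.28 and 0.35 on its other probe sets. Pgk1, which makes the first ATP of the pathway, had 6389 in silncMDSC and 5768 in control (0.15), with 0.12 and 0.15 on its others. Pgam1, which shifts the phosphate of phosphoglycerate, had 5415 in silncMDSC and 5259 in control (0.04). On the probe sets used, these 3 were each under 1.2-fold. Pkm, the pyruvate kinase of most tissues, had 3034 in silncMDSC and 2624 in control (0.21). Eno2, the enolase of neurons, was below the floor on both arrays, at 17.5 in silncMDSC and 16.4 in control.

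Among the 4 genes for the fate of pyruvate, Pdk1 had the largest difference. Pdk1, the kinase that shuts off pyruvate dehydrogenase and a known HIF target, had 1097 in silncMDSC and 755 in control, 1.45-fold higher (0.54), with 0.53, 0.61 and, below the floor, 0.67 on its other probe sets. Ldha, which makes lactate, had 7036 in silncMDSC and 6720 in control (0.07). Ldhb, which favors the reverse reaction, had 236 in silncMDSC and 222 in control (0.09), but a dim probe set gave -0.58, and the mean of its 4 probe sets was -0.12. Slc16a3, the lactate exporter MCT4, had 86.0 in silncMDSC and 72.0 in control (0.25), close to the floor. Thus only Pdk1 of these 4 lay beyond the 95th percentile of the gap between probe sets of a gene.

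The 5 members with an intensity of at least 4000 on an array (Aldoa, Tpi1, Pgk1, Pgam1 and Ldha) differed by 0.04 to 0.22. Of all 223 genes this bright, 94 were higher in silncMDSC, with a median difference of -0.01, and 2 were more than 1.5-fold apart.

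**Figure D2:**
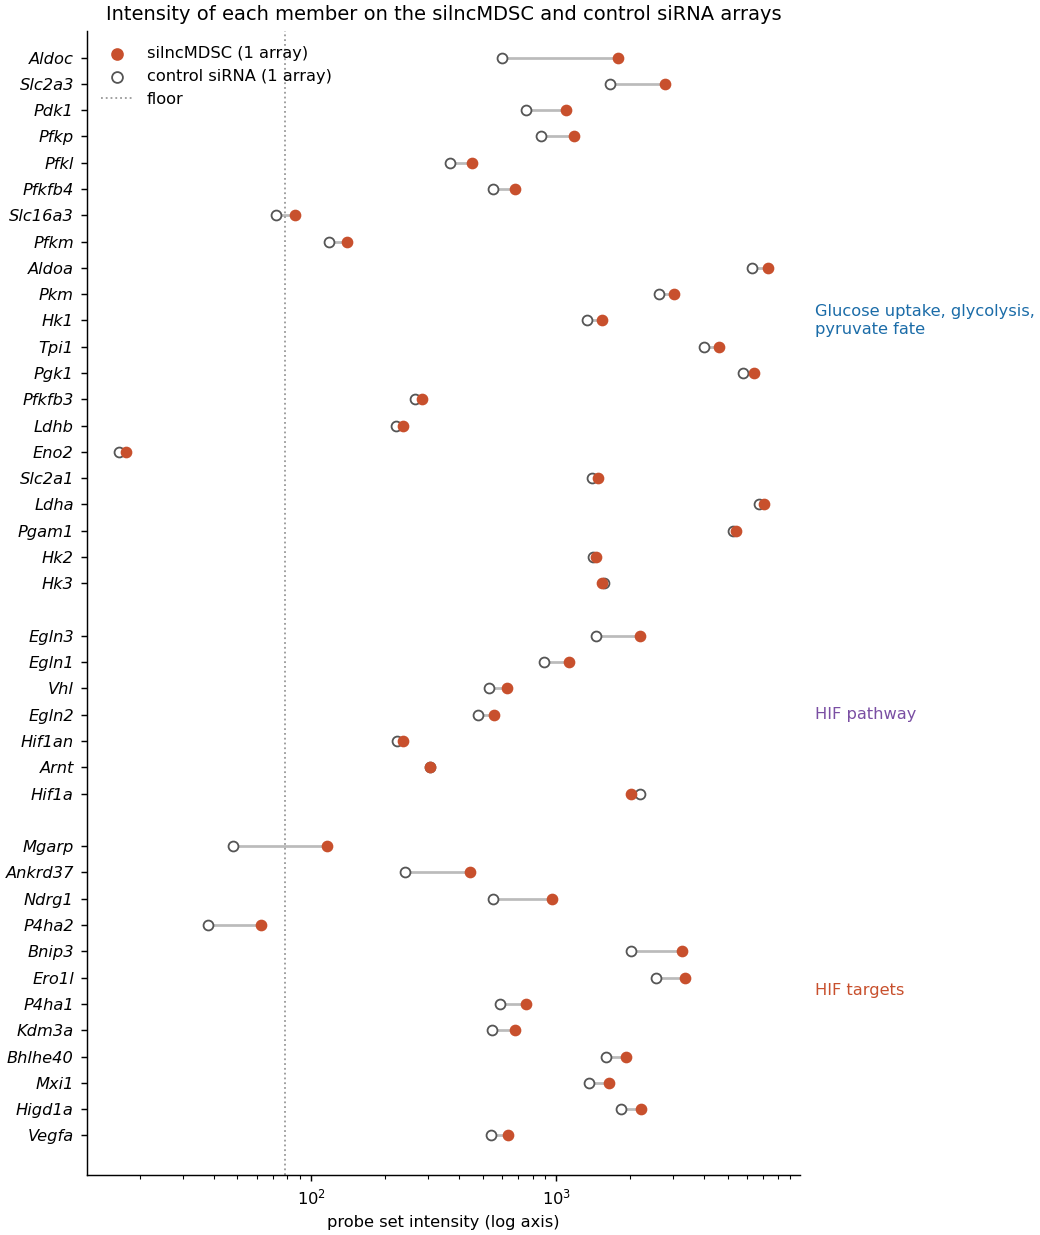
Intensity of the 40 members that had a probe set (x axis, log scale) on the silncMDSC array (filled) and the control siRNA array (open), with the floor of 78.4 as a dotted line and genes sorted by difference within each group. The gap is widest for Aldoc and Mgarp, and Hk3 and Hif1a are the only members with silncMDSC on the left.

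The genes of the oxygen-sensing machinery had a median of 0.22, where that of all genes above the floor was -0.002. All but Egln3 differed by less than 1.5-fold. Of the 7 HIF pathway genes, only Egln3 lay beyond 0.38, the 95th percentile of the gap between probe sets of a gene, which measures probe error only. Hif1a, the alpha subunit, had 2020 in silncMDSC and 2196 in control (-0.12). Its other 2 probe sets above the floor gave -0.12 and -0.20, and a dim one gave 0.02. Arnt, the partner subunit, had 305 in silncMDSC and 304 in control (0.004), and its other probe sets above the floor gave 0.09 and -0.20. Messages of both subunits thus lay within 1.2-fold, and the HIF proteins, which oxygen controls after translation, were not measured here.

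The 3 prolyl hydroxylases were all higher. Egln3 (PHD3), a HIF target itself, had 2205 in silncMDSC and 1447 in control, 1.52-fold higher (0.61), with 0.74 on its other probe set. Egln1 (PHD2), the main oxygen sensor and also HIF-induced, had 1126 in silncMDSC and 893 in control, 1.26-fold higher (0.33), with 0.38 on its other probe set. Egln2 (PHD1), which HIF is not known to induce, had 559 in silncMDSC and 481 in control (0.22). The probe sets of Egln3 lay above those of Egln1, and those of Egln1 above that of Egln2, without overlap, but the gaps of 0.27 and 0.12 were within the 95th percentile of the gap between probe sets of a gene.

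The remaining members of the pathway were Vhl and Hif1an. Vhl, which binds hydroxylated HIF for destruction, had 628 in silncMDSC and 534 in control (0.23), with 0.05 on its other probe set. Hif1an (FIH), which blocks the HIF activation domain, had 237 in silncMDSC and 224 in control (0.08), and its other 2 probe sets were below the floor at 0.02 and -0.05.

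All 11 HIF targets above the floor were higher in silncMDSC (49.3% of all genes), and 4 of them by at least 1.5-fold (0.948% of all genes). The list was proposed with these differences known, so nothing is read from these counts. Mgarp, a mitochondrial protein that HIF induces, had 117 in silncMDSC and 47.9 in control, 2.40-fold higher (1.26). It was below the floor in control, so it entered the count only through the silncMDSC array. Its difference was 1.05 with a pseudocount of 16. Bnip3, a mitochondrial protein that drives the removal of mitochondria, had 3252 in silncMDSC and 2024 in control, 1.61-fold higher (0.68). Higd1a, which acts on respiratory complexes, had 2210 in silncMDSC and 1843 in control (0.26), and its other 2 probe sets, both below the floor, gave 0.16 and 0.28. All 3 mitochondrial members were thus on one side, by very unequal amounts.

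Ankrd37, a small ankyrin repeat protein under direct HIF control, had 445 in silncMDSC and 241 in control, 1.84-fold higher (0.88), on its single probe set. Ndrg1, a stress-response protein, had 957 in silncMDSC and 554 in control, 1.73-fold higher (0.79), and its other 4 probe sets ran from 0.19 to 0.66. The mean over all 5 was 0.57, just under 1.5-fold. Ankrd37 ranked 31 and Ndrg1 44 from the top among 11920 genes.

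The enzymes among the targets were higher by smaller amounts. Ero1l, the endoplasmic reticulum oxidase that forms disulfide bonds, had 3367 in silncMDSC and 2551 in control, 1.32-fold higher (0.40), with 0.54 and 0.59 on its other probe sets. P4ha1, a collagen prolyl hydroxylase subunit, had 750 in silncMDSC and 591 in control (0.34), but 0.13 on its other probe set. Kdm3a, a histone H3 lysine 9 demethylase, had 678 in silncMDSC and 547 in control (0.31). P4ha2, the second collagen hydroxylase subunit, was below the floor with 62.3 in silncMDSC and 37.9 in control (0.70) and was not counted.

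Among the regulators, Mxi1, which opposes MYC, had 1637 in silncMDSC and 1359 in control (0.27), with 0.09 on its other probe set. Bhlhe40, a transcriptional repressor, had 1920 in silncMDSC and 1593 in control (0.27). Vegfa, the angiogenic growth factor, had 635 in silncMDSC and 541 in control (0.23), with 0.24 on its other probe set. These 3 classical targets were on the same side as the rest, at 1.17-fold to 1.21-fold.

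Other probe sets of the same genes were on the same side as the first in most cases. Of 37 other member probe sets above the floor, from 21 genes, 33 were higher in silncMDSC, where 46.7% of all such probe sets were, and their median was 0.24. They read the same 2 RNA samples, so they bear on probe error only. For 20 of the 21 genes every such probe set had the sign of the first, Arnt being the exception, and the largest gap between the brightest and the next was 0.21. The other 17 members above the floor rested on 1 probe set. By size, 10 members lay beyond 0.38, the 95th percentile of the gap over all genes, as did 878 of the 11920 genes in either direction. These were Slc2a3, Pfkp, Aldoc, Pdk1, Egln3, Ankrd37, Bnip3, Ndrg1, Ero1l and Mgarp. Slc2a1, Hk2, Hk3, Pgam1, Ldha, Ldhb, Arnt and Hif1an were within the median gap. Around the 1.5-fold threshold, Bnip3 (1.61-fold) and Egln3 (1.52-fold) lay just inside, and Pdk1 (1.45-fold) and Pfkp (1.36-fold) just outside.

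**Figure D3:**
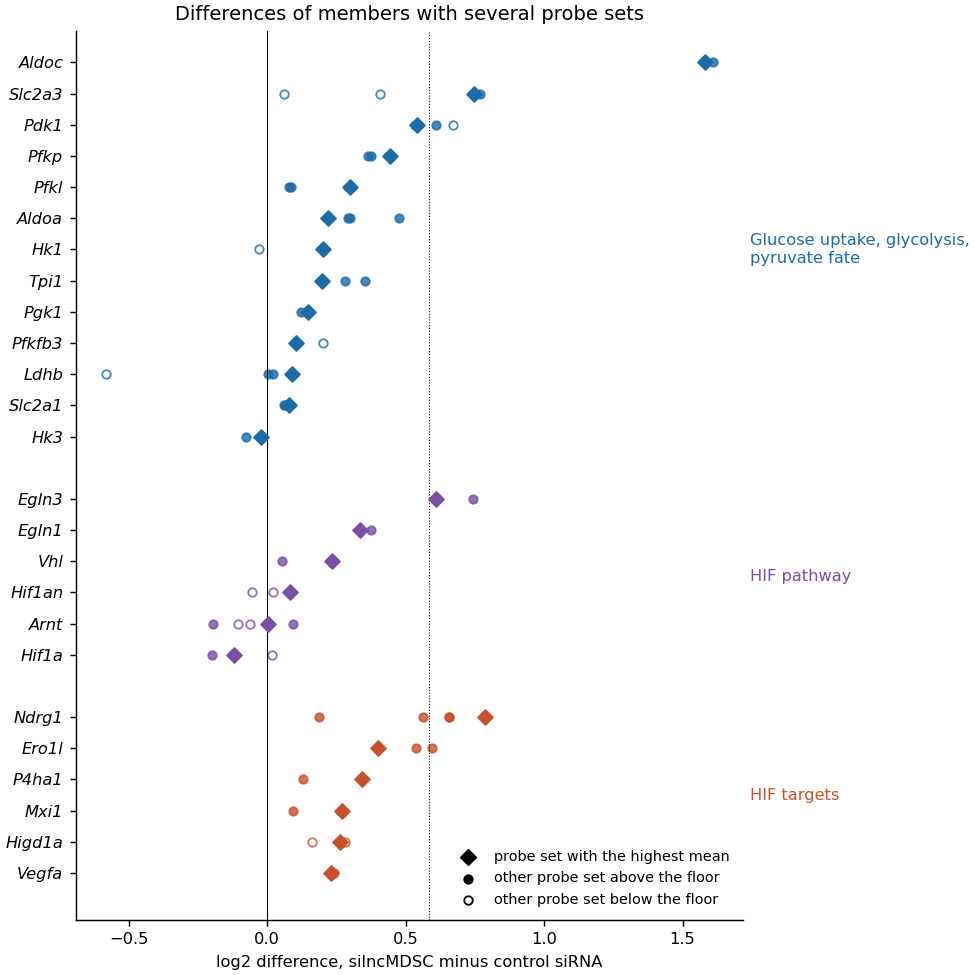
Log2 difference between silncMDSC and control (x axis, positive where silncMDSC is higher, 1 array each) for each probe set of the members that have several, with diamonds for the probe set used, filled circles for others above the floor and open circles for those below it. The 2 probe sets of Aldoc coincide near 1.6, while those of Arnt fall on both sides of 0.

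Genes around the same pathways were read from lists chosen by function, but with earlier results of these arrays known and without the members. The contrast between the members and these lists is therefore given as a description only. The lists are short, so nothing is read from 0 or 1 gene past 1.5-fold. Other hypoxia-induced genes lay on both sides, more of them higher. Of 25 above the floor, 17 were higher (49.3% of all genes) and 8 lower, and the median was 0.09. By at least 1.2-fold, 9 were higher (6.96% of all genes) and 1 was lower (10.6% of all genes). Past 1.5-fold were 3 upward (0.948% of all genes) and 0 downward (1.42% of all genes). Selenbp1, a selenium-binding protein with a closely related mouse copy that may share its probes, had 1449 in silncMDSC and 751 in control (0.95), with 1.39 on its other probe set. Ddit4, which restrains the growth kinase mTORC1, had 1936 in silncMDSC and 1242 in control (0.64). Ccng2, an unusual cyclin, had 1263 in silncMDSC and 834 in control (0.60) but only 0.05 on its other probe set. Car9, the acid-handling carbonic anhydrase often used as a hypoxia marker, had 158 in silncMDSC and 109 in control (0.53), just under 1.5-fold.

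Glycogen metabolism was the related list whose median, 0.21 over 9 genes, was nearest to that of the members. Of the 9, 7 were higher (49.3% of all genes) and 0 reached 1.5-fold upward (0.948% of all genes) or downward (1.42% of all genes). Only 2 of the 9 had a second probe set above the floor, and the median of those was -0.0003. Pgm1, which links glucose 6-phosphate to glycogen, had 331 in silncMDSC and 228 in control (0.54). Gys1, glycogen synthase, had 601 in silncMDSC and 419 in control (0.52), with 0.07 on its other probe set. Gbe1, the branching enzyme, had 442 in silncMDSC and 320 in control (0.46), and Pygb, a glycogen phosphorylase, differed by 0.26. These 4 genes were named for the size of their differences, so their common sign adds nothing to the count of 7 higher.

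Other carbohydrate lists were centered near 0. Other glycolysis and pyruvate genes had a median of -0.02 over 14 genes. Of these, 7 were higher (49.3% of all genes), 7 lower and 1 at least 1.5-fold lower (1.42% of all genes). That gene was Slc16a1, the lactate and pyruvate transporter MCT1, with 231 in silncMDSC and 400 in control (-0.79), opposite in sign to the exporter Slc16a3. Bsg, the chaperone that both transporters need, had 1474 in silncMDSC and 1168 in control (0.34), and Dlat and Pgam2 differed by -0.19 and -0.16. Gapdh had no gene probe set named here, and its 3 control probe sets on the array differed by 0.04 to 0.09. The pentose phosphate pathway had a median of 0.002 over 6 genes, with 3 higher (49.3% of all genes) and 3 lower. In it 0 were past 1.5-fold upward (0.948% of all genes) or downward (1.42% of all genes). Its largest differences were Rpe (-0.26), Pgls (0.16), Rpia (-0.13) and Taldo1 (0.07).

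The tricarboxylic acid cycle, which burns what glycolysis delivers, had a median of -0.05 over 14 genes. Of these, 4 were higher (49.3% of all genes), 10 lower and 1 at least 1.5-fold lower (1.42% of all genes). Idh3a, a catalytic subunit of isocitrate dehydrogenase, had 649 in silncMDSC and 1034 in control (-0.67), but -0.32 and -0.20 on its other probe sets. Suclg1 (-0.17), Sucla2 (-0.16) and Mdh2 (-0.12) came next. Other HIF subunits and partners had a median of -0.06 over 9 genes, with 4 higher (49.3% of all genes) and 5 lower. In this list 0 were past 1.5-fold upward (0.948% of all genes) or downward (1.42% of all genes). Among them Hif3a differed by 0.49 with -0.001 on its other probe set, Epas1, the second alpha subunit HIF-2α, had 81.7 in silncMDSC and 67.0 in control (0.28), and Cul2 and Crebbp differed by -0.23 and -0.19.

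**Figure D4:**
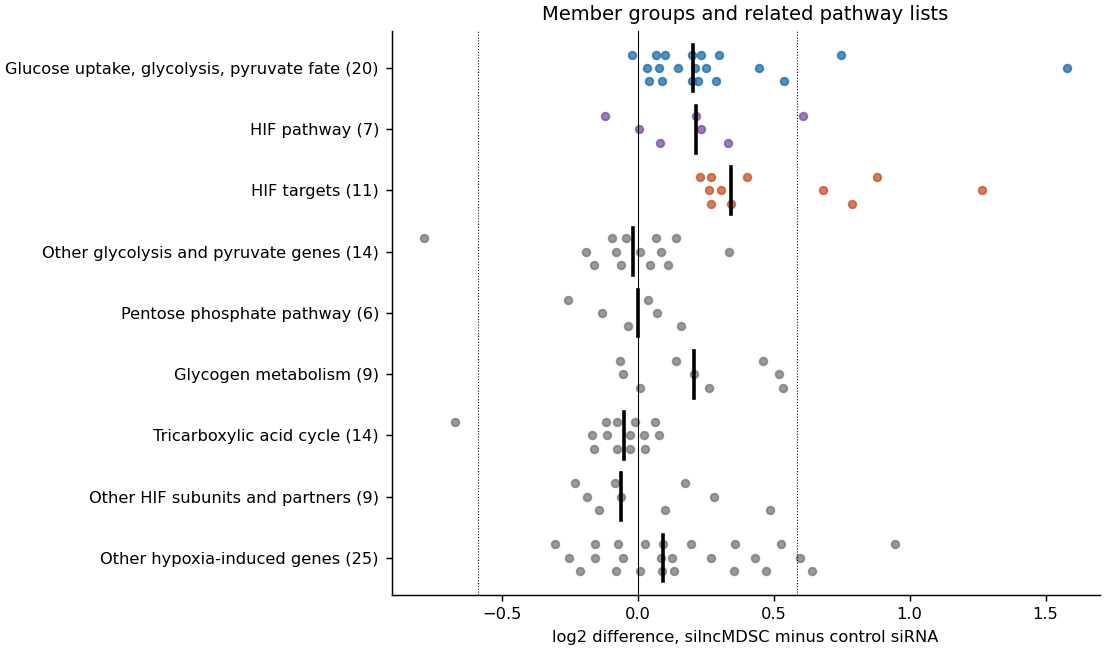
Log2 difference between silncMDSC and control (x axis, positive where silncMDSC is higher, 1 array each) for each gene above the floor in the 3 member groups (colored) and 6 related lists (grey), with black bars at the medians, dotted lines at 1.5-fold and the number of genes in brackets. The medians of the member groups are 0.21, 0.22 and 0.34, and that of glycogen metabolism is 0.21, while the tricarboxylic acid cycle lies at -0.05.

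The labelled cell type was checked against 8 defining genes. Ly6g and Ly6c2, genes of the Ly6G and Ly6C antigens by which the study tells MDSC subsets apart, had no probe set named here. The other 6 had a probe set of their own, and all 6 were above the floor. Of these, 5 were lower and 1 higher, all within 1.2-fold, with a median of -0.03. S100a8 and S100a9 made up most of their sum of 35008 in silncMDSC and 34928 in control, and S100a9 was the highest value on both arrays, so the sum says little of the others. Markers of some other cell types differed between the arrays, in both directions. Of 10 macrophage markers, 10 were lower and 5 by at least 1.5-fold (1.42% of all genes). Their sum was 11800 in silncMDSC and 14769 in control. Of 9 dendritic cell markers, 9 were higher by any size (49.3% of all genes) and 4 by at least 1.5-fold (0.948% of all genes). Their sum was 22472 in silncMDSC and 16565 in control. The 4 eosinophil markers above the floor, of 6 listed, were all higher (0.18 to 0.55), with a sum of 4381 in silncMDSC and 3156 in control. Neutrophil markers summed to 44519 in silncMDSC and 46892 in control over 9 genes, 2 of them higher. The part of these cell types in the members' differences was not tested.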

How the data were processed

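Total RNA of 1 culture per siRNA (6 µg, per the labels) was hybridized to an Affymetrix mouse expression array. The values deposited by the authors were linear probe set intensities. The submitters' processing notes name RMA without a version. RMA normally gives log2 values, so the return to a linear scale and the lower limit of 1 come from steps not given in the sources used here, and dim values are the most affected. The scanner files were not used here. Of 45101 probe sets, 64 controls were set apart and 34945 had 1 symbol in the platform annotation. A gene was read from its single-symbol probe set with the highest mean, and Ero1l was matched through RefSeq synonyms.

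The methods name limma, which needs residual degrees of freedom that 1 array per group does not leave. No test was run and no p-value is given. The members and lists were chosen with earlier results of these data known. All members are named, and of each related list up to 4 genes above the floor with the largest absolute differences. Alternatives changed the pseudocount, the floor, the normalization, the probe set rule and the fold threshold. The calculation was tested on simulated data with 200 genes changed by known amounts. Even the smallest of these changes exceeded the difference of every member but Aldoc, and the changed genes were well above the floor. The simulation therefore does not cover small differences or dim genes. Marker lists for mast cells and basophils, monocytes, erythroid cells, megakaryocytes, T and NK cells and B cells were also read, with median differences of 0.02, 0.10, 0.07, 0.13, 0.12 and -0.02 in this order. Some medians hid large differences: the monocyte markers Vcan and Fcgr1 were at -1.01 and -0.52, the megakaryocyte sum was 5970 in silncMDSC and 7699 in control with Pf4 at -0.43, and the T and NK cell sum was 1291 in silncMDSC and 1012 in control with Klrd1 at 0.91. Analyses used Python 3.11.15, pandas 2.3.3 and statsmodels 0.14.6. Protein identity between isozymes, which was planned, was not computed because no protein table was used here.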

Additional observations from a re-analysis of the deposited data

How the results depend on the processing

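No paired analysis was possible because each group had 1 array. The number of arrays and the unknown lower-limit step bound every value, and Mgarp and Slc16a3 were below the floor in control. The median of all members ran from 0.23 to 0.28 over 11 alternatives and that of the HIF targets from 0.24 to 0.39. The HIF pathway median was 0.14 with the mean of all probe sets and 0.092 with the next brightest probe set, which 5 of its genes had. With that probe set, 19 of 21 members were higher and 4 at least 1.5-fold higher. At a threshold of 1.2-fold 17 of the 38 members were higher, and at 2-fold 2 were. The count at 1.5-fold was otherwise 6 to 8, and 0 members were lower by the threshold under any alternative run. With the mean of all probe sets, Slc2a3 (0.50) and Ndrg1 (0.57) were under 1.5-fold and Pdk1 (0.59) passed it, as it did after quantile normalization (0.59). Slc2a3 and Aldoa had no value above the floor without cross-hybridizing probe sets. The sign turned for Hk3 with the loess trend removed, and for Ldhb (-0.12) and Arnt (-0.05) with the mean of all probe sets. With the next brightest probe set, Pfkl (0.08), Vhl (0.05), P4ha1 (0.13) and Mxi1 (0.09) were also smaller, and the glycogen metabolism median was -0.0003 over 2 genes. None of the 7 members past 1.5-fold changed sign under the alternatives run.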
